A study of Mus musculus with 4 samples.

Results

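The genes described here are 10 genes of the channels and junctions of astrocytes. They are the connexins Gja1, Gjb2, Gjb6 and Gjc1, the pannexins Panx1 and Panx2, the scaffold gene Tjp1 and the claudin gene Cldn10. Mlc1 and Hepacam, whose products form a complex at astrocyte contacts, complete the set. All 10 genes were taken by symbol from the gene column, and each was found once among 55467 genes. RNA was sequenced from 4 libraries of primary astrocytes grown from the cerebral cortex of newborn mice (postnatal day 1 to 3), 2 labelled WT and 2 labelled CD38 KO. Both groups went through the same culture, with 14 days in medium containing 10% serum, 12 h of shaking to remove loosely attached cells, and harvest 5 days after replating. The CD38 KO cells lack the gene of an NAD+-consuming surface enzyme. The strain, the deleted exons, and whether the 2 libraries of a genotype are separate animals or cultures are not given in the labels. P-values therefore measure only the spread between these libraries, which may be technical, and the knockout and any strain difference cannot be told apart.

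A gap junction channel forms when rings of connexins in touching cells dock, which lets ions and small molecules pass from cell to cell. In astrocytes of the brain, Gja1 (connexin Cx43) and Gjb6 (Cx30) are the main connexins, and together they make the glial network that spreads potassium, glucose and calcium signals. Pannexins resemble connexins in their fold but work mostly as channels to the outside that release ATP. MLC1 and HepaCAM (also called GlialCAM) sit together where astrocyte processes meet, regulate chloride and volume, and cause a leukodystrophy when mutated.

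The stretches before the start sites of 3 connexin genes are shown because Gja1 was the one member called higher, and because Gjb2 and Gjb6 are neighbours on chromosome 14, 18600 bases apart, that were both at lower values in CD38 KO. Each is the 250 bases upstream of the RefSeq start on build GRCm38.p6, written 5′ to 3′ along the gene, with matches to the searched motifs in capitals.
Gja1 chr10:56377050-56377299 (+ strand): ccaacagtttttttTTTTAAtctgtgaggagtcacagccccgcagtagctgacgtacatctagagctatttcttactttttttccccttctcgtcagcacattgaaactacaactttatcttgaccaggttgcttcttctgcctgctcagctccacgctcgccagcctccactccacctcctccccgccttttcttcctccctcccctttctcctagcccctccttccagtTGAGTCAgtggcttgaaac
Gjb2 chr14:57104703-57104952 (- strand): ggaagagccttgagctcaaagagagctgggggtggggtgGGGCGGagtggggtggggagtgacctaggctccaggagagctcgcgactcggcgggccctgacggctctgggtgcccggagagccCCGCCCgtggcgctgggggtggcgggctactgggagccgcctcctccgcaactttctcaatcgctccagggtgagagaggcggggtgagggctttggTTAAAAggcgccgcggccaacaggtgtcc
Gjb6 chr14:57133612-57133861 (- strand): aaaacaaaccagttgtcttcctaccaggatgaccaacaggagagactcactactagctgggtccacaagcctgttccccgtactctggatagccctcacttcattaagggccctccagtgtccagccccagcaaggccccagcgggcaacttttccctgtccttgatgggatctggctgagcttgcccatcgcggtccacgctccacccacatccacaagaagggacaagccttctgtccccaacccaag
The motifs searched on both strands were TGANTCA (the AP-1 site), GGGCGG (the GC box), TATAAA (the TATA box) and TTAAAA, and no matches overlapped in these 3 windows. Among 32851 RefSeq windows of this length, 6.75% held TGANTCA, 32.7% GGGCGG, 12.4% TATAAA and 17.7% TTAAAA. Gja1 held 1 TGANTCA match beginning at base -19 from the start and 1 TTAAAA match, read on the other strand, at base -236. Gjb2 held 2 GGGCGG matches, at bases -211 and -126, and 1 TTAAAA match at base -29. Gjb6 held none of the 4 motifs. The G and C content was 50.0% in Gja1, 69.2% in Gjb2 and 56.8% in Gjb6, against a median of 52.4% over all windows. Windows were found for 8 of the 10 members, 9 windows in all since Cldn10 has 2 starts. TGANTCA was in the Gja1 window alone among the 9. These matches describe letters and not bound sites.

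The libraries held an estimated 26833400 to 29104600 fragments, recovered from the steps between low values. FPKM, the deposited unit, is the number of fragments scaled to transcript length and library size. Cd38 measured 3.13 and 3.45 FPKM for WT and 0.0222 FPKM for both CD38 KO libraries, so that every library carried the Cd38 level of its label. Across the 13064 genes that averaged 1 FPKM or more, limma on log2(FPKM + 1) called 1045 genes higher and 830 lower in CD38 KO at a Benjamini-Hochberg adjusted p under 0.05, 14.4% in all, and the median log2 change over these genes was 0.00. All 14 astrocyte markers were expressed, with a summed level of 5326 to 5352 FPKM in WT and 4372 to 4510 FPKM in CD38 KO. The 15 microglia and macrophage markers summed to 84.3 and 85.7 FPKM in WT and to 291 and 318 FPKM in CD38 KO. In bulk RNA, fewer cells of a type and less RNA per cell cannot be told apart.

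Mlc1 was the most abundant of the 10 genes and Gjb6 the least in every library. By mean FPKM, a scale that allows for gene length, the order was Mlc1, Hepacam, Gja1, Tjp1, Panx1, Cldn10, Panx2, Gjc1, Gjb2 and Gjb6. For 8 of the 9 pairs of neighbours in this order the values of the 4 libraries did not overlap. The exception was Gjc1 and Gjb2, which were at nearly the same level in WT and whose order held in 3 of 4 libraries. Mlc1 was 2.74 to 3.01 times the level of Hepacam within a library, and Gjb6 stood 2.34 to 10.0 times below Gjb2.

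**Figure D1:**
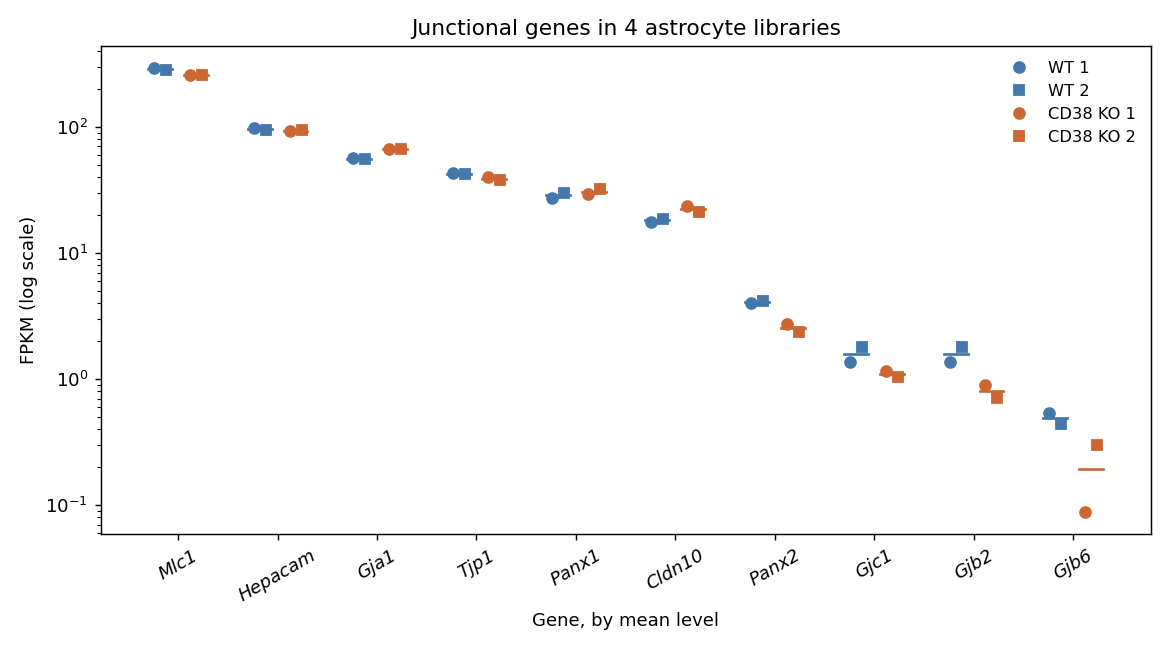
FPKM on a log axis for each of the 10 genes in each library (circles and squares, replicates 1 and 2, WT in blue and CD38 KO in orange; lines are the means of 2 libraries). Levels span from 0.0889 FPKM for Gjb6 in CD38 KO 1 to 293 FPKM for Mlc1 in WT 1, and the differences between genes are much wider than those between genotypes.

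Gja1, which encodes Cx43, the main channel protein of the astrocyte network, rose modestly in CD38 KO. Gja1 (ENSMUSG00000050953, GRCm38 chromosome 10, 56377330 to 56402513) measured 56.7 and 55.6 FPKM in the WT libraries against 66.7 and 66.4 FPKM in the CD38 KO libraries. Both CD38 KO libraries lay above both WT libraries, and the replicates lay far closer to each other than the groups did. The means were 56.1 ± 0.764 and 66.6 ± 0.205 FPKM (SD, n = 2 each), an 18.5% higher level in CD38 KO. The limma log2 change was 0.24 (SE 0.04, 95% interval 0.14 to 0.35, adjusted p = 0.0194). The call ended in each of the 4 fits without 1 library (adjusted p 0.0804 to 0.115), with log2 changes of 0.23 to 0.26, and in the fit without a trend of the variance on level (0.0652). Gja1 made up most of the connexin transcripts in every library. Its share of the FPKM summed over 20 connexin genes was 88.7% and 87.7% in WT and 94.4% and 93.5% in CD38 KO.

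The other connexins were scarce, and those among the members were at lower values in CD38 KO. Of these, Gjb2 and Gjc1 did not pass the test, and Gjb6 was not tested. Gjb2 (chromosome 14, 57098600 to 57104702), which encodes Cx26, a connexin also made by meningeal cells and by epithelia, measured 1.36 and 1.79 FPKM in WT 1 and WT 2 against 0.893 and 0.707 FPKM in CD38 KO 1 and CD38 KO 2. The groups did not overlap, and the CD38 KO mean was 49.2% lower (log2 change -0.51, SE 0.15, limma adjusted p = 0.0832). Gjb2 has a single annotated transcript, and its FPKM correspond to 82 and 113 fragments from WT cells against 58 and 46 from CD38 KO cells. Corrected for depth, the CD38 KO level from these fragments, pooled by genotype, was 50.5% of WT (95% interval 39.4% to 64.4%, exact Clopper-Pearson, counting error only). The spread between libraries of a genotype is not in this interval.

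Gjb6 (chromosome 14, 57123303 to 57133611), which encodes Cx30, the connexin that joins Cx43 in mature grey matter astrocytes, was close to absent in these cultures. Its level was 0.538 and 0.438 FPKM for WT but 0.0889 and 0.302 FPKM for CD38 KO, below the level required for testing. Of its 4 annotated transcripts, only the length of 2105 bases turns these values into whole numbers of fragments within 0.1 in all 4 libraries, and it was chosen for that. The numbers are 28 and 24 for WT against 5 and 17 for CD38 KO. Both CD38 KO libraries were below both WT libraries, although they differed more from each other than the WT libraries did. On this choice of transcript, the CD38 KO level from the pooled fragments was 40.1% of WT (23.2% to 67.2%, same method, counting error only). This interval leaves out the spread between libraries, at 5 and 17 fragments in CD38 KO, and can be too narrow. Without a filter on low values limma gave a log2 change of -0.32 with an adjusted p of 0.248.

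Gjc1 (chromosome 11, 102799579 to 102819700), which encodes Cx45, a connexin of muscle, vessels and developing brain, had 1.36 and 1.81 FPKM in the WT pair against 1.16 and 1.04 FPKM in the CD38 KO pair. The groups did not overlap, but the gap between them was smaller than the difference between the WT libraries (log2 change -0.29, SE 0.15, limma adjusted p = 0.248). Of the other connexins, Gja3 alone was tested, at 2.35 and 1.79 FPKM for WT against 0.809 and 1.92 FPKM for CD38 KO, with overlapping groups (adjusted p = 0.326). Gja10, Gjd2, Gjd4 and Gje1 were listed at 0 in all 4 libraries. Gjb1, a connexin of oligodendrocytes, was at 0.0526 FPKM in WT 2 and at 0 in the other libraries.

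**Figure D2:**
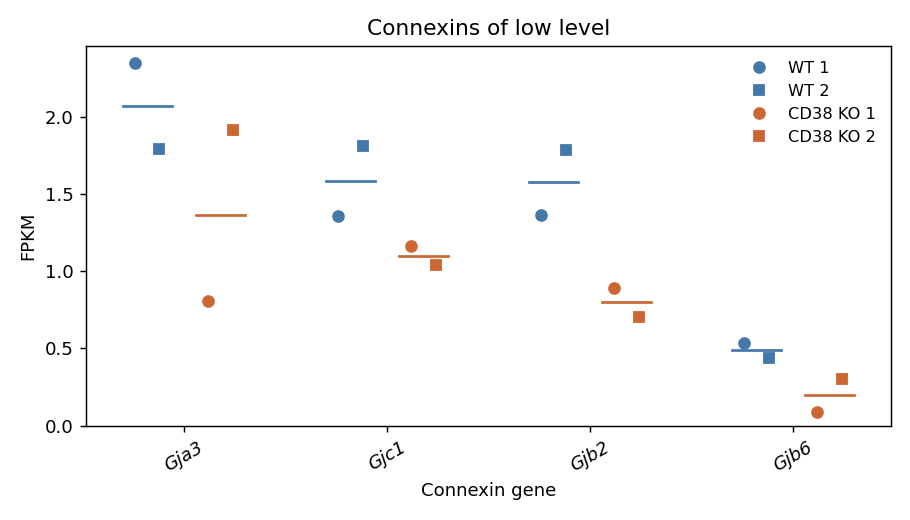
FPKM of 4 connexin genes of low level in each library (symbols as in the plot of the 10 genes; lines are means of 2 libraries). The values of Gjb2, Gjb6 and Gjc1 do not overlap between genotypes and are lower in CD38 KO, while those of Gja3 overlap; Gjb2, Gjc1 and Gja3 were tested, and none of these 3 was called.

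The pannexin genes differed from each other, with Panx2 lower in CD38 KO and no detected difference in Panx1. Panx1 (chromosome 9, 15002128 to 15045478), the widely expressed pannexin that opens to release ATP, measured 27.5 and 29.9 FPKM in the WT libraries against 29.2 and 32.1 FPKM in the CD38 KO libraries. Its groups overlapped, as it alone did among the 10 genes (log2 change 0.09, 95% interval -0.09 to 0.27, limma adjusted p = 0.442). Panx2 (ENSMUSG00000058441, chromosome 15, 89059734 to 89073567), a pannexin enriched in the nervous system, measured 4.02 and 4.20 FPKM for WT 1 and WT 2 against 2.75 and 2.37 FPKM for CD38 KO 1 and CD38 KO 2. It was lower in both CD38 KO libraries, from 4.11 ± 0.127 to 2.56 ± 0.271 FPKM (SD, n = 2 each), a 37.7% decrease. The log2 change was -0.52 (SE 0.10, 95% interval -0.78 to -0.27, limma adjusted p = 0.0276). The call ended in each of the 4 fits without 1 library (adjusted p 0.0866 to 0.144) and without a filter on low values (0.113).

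Panx2 shares its last part with an antisense gene, 1810021B22Rik, on the other strand. That gene had 2.90 and 4.82 FPKM for WT against 6.20 and 6.57 FPKM for CD38 KO, opposite in direction to Panx2, and was not called (limma adjusted p = 0.087). The library kit keeps the strand, per the labels, but whether strand was used in estimating FPKM is not given in the sources used here, so the values of both genes are uncertain to that extent. Neuron markers are given here because Panx2 is also made by neurons. They summed to 136 and 147 FPKM for WT against 133 and 137 FPKM for CD38 KO. Of 4 tested, 1 was called higher and 1 lower. Stmn2 rose from 30.7 and 28.8 to 54.8 and 56.1 FPKM, while Gad1 fell from 71.4 and 81.5 to 46.1 and 41.7 FPKM. Another 5 (Snap25, Rbfox3, Syt1, Slc17a7 and Nefl) were under 1 FPKM in all 4 libraries. The sums therefore do not show whether neuron content was unchanged. The part of neurons in the Panx2 result was not tested.

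Neither of the 2 tight junction members passed the test. Tjp1 (chromosome 7, 65296165 to 65527781) encodes ZO-1, the scaffold that binds claudins and the tail of Cx43 beneath the membrane. It measured 42.8 and 42.1 FPKM for WT against 40.1 and 37.7 FPKM for CD38 KO, lower in both CD38 KO libraries by a mean of 8.21% (log2 change -0.12, 95% interval -0.25 to 0.01, limma adjusted p = 0.185). Cldn10 (chromosome 14, 118787908 to 118875489) encodes a claudin that forms ion-selective pores, and it is used as an astrocyte-enriched transcript in brain. Its level was 17.8 and 18.8 FPKM for WT against 23.8 and 21.1 FPKM for CD38 KO. Both CD38 KO libraries were higher, with the largest relative difference upward among the members, 22.8% in the mean, but the CD38 KO libraries also differed by more than 2 FPKM (log2 change 0.28, SE 0.07, adjusted p = 0.0628).

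Of the MLC1 and HepaCAM pair, Mlc1 fell slightly and Hepacam showed no detected difference. Mlc1 (ENSMUSG00000035805, chromosome 15, 88955884 to 88979007), which encodes the membrane protein of the complex, measured 293 and 285 FPKM in the WT libraries against 256 and 259 FPKM in the CD38 KO libraries. Its mean went from 289 ± 5.81 to 258 ± 2.41 FPKM (SD, n = 2 each), which is 10.8% lower with no overlap. The log2 change was -0.16 (SE 0.04, 95% interval -0.26 to -0.07) and its limma adjusted p of 0.0493 was just under the threshold. It passed the threshold in none of the 4 fits without 1 library (0.147 to 0.196). It also missed it without a filter on low values (0.114), without a trend of the variance on level (0.146) and with median-of-ratios scaling (0.0524). Hepacam (chromosome 9, 37367351 to 37386575), the adhesion molecule that brings MLC1 to cell contacts, had 97.4 and 94.7 FPKM in the WT pair against 92.5 and 94.6 FPKM in the CD38 KO pair. The 2 groups came within 1 FPKM of each other, and the interval of the difference was -0.14 to 0.07 on the log2 scale (adjusted p = 0.601).

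Ratios within a library, which do not depend on scaling between libraries, separated the genotypes for Gja1. The ratio of Gja1 to Hepacam FPKM was 0.582 and 0.587 in WT and 0.721 and 0.702 in CD38 KO. The ratio of Mlc1 to Hepacam was 3.01 in both WT libraries and 2.77 and 2.74 in CD38 KO. The ratio of Panx1 to Panx2 was 6.85 and 7.13 in WT and 10.6 and 13.6 in CD38 KO, while that of Gjb2 to Gjb6 overlapped between the genotypes, at 2.53 and 4.07 against 10.0 and 2.34. These ratios show that the genes changed unequally, not which of them moved. With 2 libraries in each group an exact permutation test of a ratio could not pass the threshold, so none is given.

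In all, 1 of the 9 tested members was called higher (Gja1) and 2 lower (Panx2 and Mlc1), and 6 were not called. Over all tested genes 14.4% were called, 8.00% higher and 6.35% lower, so with 9 members the count is not set apart from the background by a test. The median log2 change of the 9 was -0.12, beside 0.00 over all tested genes. Of all 10 members 9 had groups that did not overlap, 2 higher and 7 lower in CD38 KO. The 7 include the untested Gjb6. Among 5234 genes averaging 0.1 to under 1 FPKM, 22.8% were lower in CD38 KO without overlap. Of the 9 tested, 8 did not overlap, 2 higher and 6 lower, where 59.9% of all tested genes did not, 30.4% higher and 29.5% lower. Gjb2, 1 of these 6, passed the filter through WT alone.

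**Figure D3:**
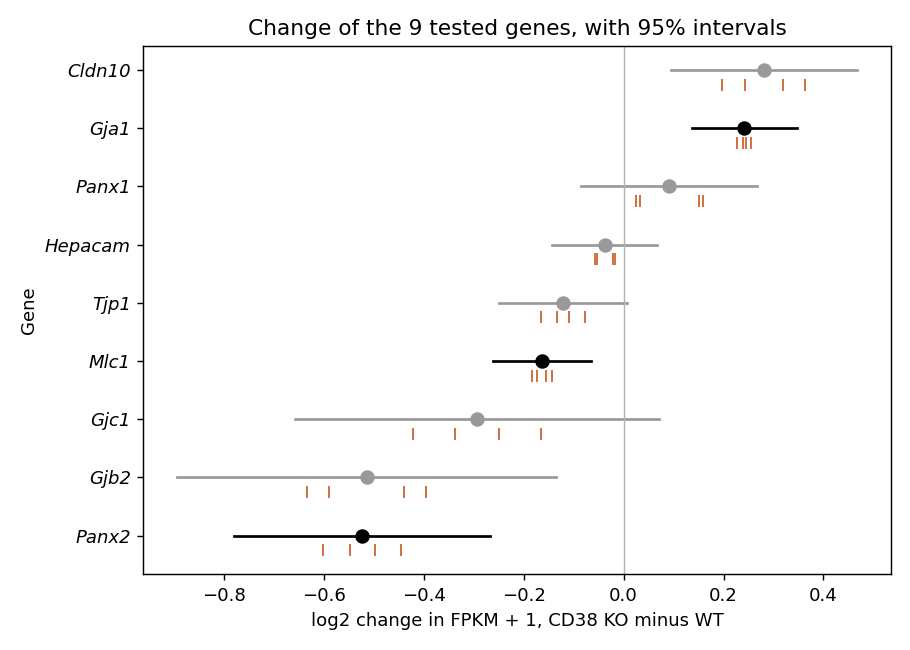
The log2 change in FPKM + 1, CD38 KO minus WT, of the 9 tested genes with 95% intervals (black, called; grey, not called), and below each the 4 values without 1 library (orange ticks). Gja1 at 0.24 lies above 0 and Panx2 at -0.52 and Mlc1 at -0.16 below it, and the ticks of each gene stay on 1 side of 0.

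Genes that act together with these proteins were read from 4 lists, for the other connexins and pannexins, the partners and kinases of Cx43, the other tight junction genes, and the partners of MLC1 and HepaCAM. Over these lists 52 of 90 genes were tested, and 3 were called higher and 10 lower. Over all tested genes 8.00% were called higher and 6.35% lower, and no list was tested against these shares. Among 14 tested partners of MLC1 and HepaCAM 1 was higher and 5 were lower, with a median log2 change of -0.18. Kcnj10, an inward rectifier channel for potassium, fell from 272 and 269 FPKM in WT to 175 and 192 FPKM in CD38 KO (log2 change -0.56, limma adjusted p = 0.0028). The water channel gene Aqp4 fell from 331 and 321 to 252 and 267 FPKM, and Dag1, the gene of dystroglycan, which anchors astrocyte endfeet, from 116 in both WT libraries to 100 and 101 FPKM. Gpr37l1, a receptor that binds HepaCAM, was the higher member, up from 36.7 and 36.0 to 48.0 and 50.3 FPKM (adjusted p = 0.0048). Gprc5b and Atp1b2 were the other lower members. Without 1 library, Kcnj10 was called in 4 of 4 fits, Gpr37l1 in 3, Aqp4 in 1 and the others in 0.

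Among the 20 partners and kinases of Cx43, all tested, 1 was higher and 2 were lower, with a median log2 change of -0.05. Ccn3, a secreted matrix protein that binds the Cx43 tail, rose from 2.16 and 2.23 FPKM in WT to 8.02 and 8.82 FPKM in CD38 KO, a 3.83-fold change called in all 4 fits without 1 library (log2 change 1.56, limma adjusted p = 0.000382). Ezr, which links membrane proteins to actin, fell from 382 and 384 to 315 and 325 FPKM. Nedd4, a ubiquitin ligase that marks Cx43 for removal, fell from 380 and 389 to 320 and 334 FPKM. Both lost their calls in all 4 fits without 1 library.

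Among 17 tested genes of 36 other tight junction genes, 1 was higher and 3 were lower, with a median log2 change of -0.04. Cldn19, a claudin of kidney and Schwann cells, fell from 6.43 and 7.89 FPKM to 4.05 and 3.58 FPKM (limma adjusted p = 0.0128). Cldn12 fell from 35.3 and 32.9 to 27.0 and 28.6 FPKM, and Cgnl1, the gene of the junction protein paracingulin, from 20.3 and 19.0 to 15.6 and 16.4 FPKM. F11r, which encodes the adhesion molecule JAM-A, also found on leukocytes, rose from 0.474 and 0.551 to 1.41 and 1.65 FPKM (adjusted p = 0.0256). It passed the filter through its CD38 KO level alone, and without a filter it was not called (adjusted p = 0.0639). It stands beside the higher microglia and macrophage markers given above, and their part in it was not tested. Cldn19 was called in 1 of the 4 fits without 1 library, and Cldn12, Cgnl1 and F11r in 0. In the list of other connexins and pannexins, Gja3 was the single tested gene of 17, and Panx3 was listed at 0 in every library.

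**Figure D4:**
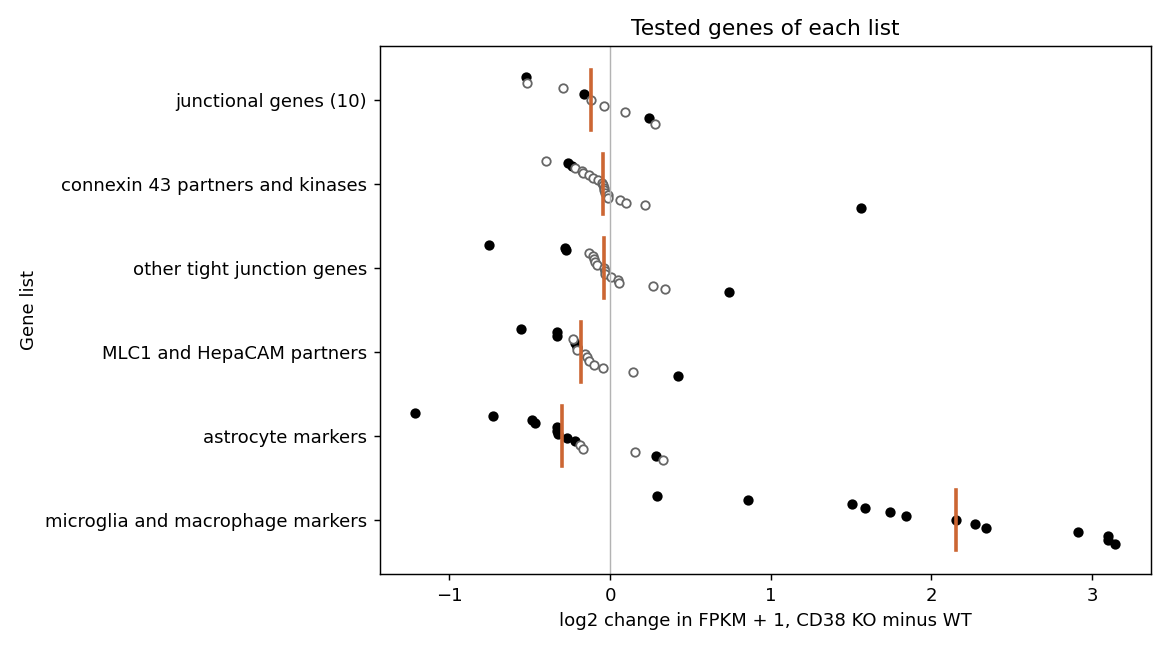
The log2 change in FPKM + 1, CD38 KO minus WT, of each tested gene (filled, called; open, not called) in the 10 junctional genes, 3 lists of partners and 2 lists of cell type markers, with each median as an orange line. Medians were -0.12 for the junctional genes, -0.05, -0.04 and -0.18 for the partner lists, -0.30 for astrocyte markers and 2.15 for microglia and macrophage markers. Aqp4 and Atp1b2 are in both the list of MLC1 and HepaCAM partners and that of astrocyte markers.

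Markers of astrocytes were mostly lower while Gja1 was higher. Of 14 astrocyte markers 1 was called higher (Aldh1l1) and 9 lower, with a median log2 change of -0.30, and none was at 0 in any library. Aldoc, S100b, Glul and Sox9 fell to 71.3%, 38.3%, 72.4% and 79.7% of their WT means. Slc1a2, Aldh1l1 and Acsbg1 went the other way, like Gja1, to 125.6%, 121.9% and 111.4%. Of these, Slc1a2 (limma adjusted p = 0.0515) and Acsbg1 (0.0965) were not called. All 13 tested microglia and macrophage markers were called higher (Cx3cr1, Tmem119 and Itgam passed the filter through CD38 KO alone), and the largest folds were those of Cx3cr1 at 12.1-fold and C1qb at 11.4-fold. The meningeal fibroblast markers, given because meningeal cells also make Gjb2, summed to 1443 and 1303 FPKM for WT against 1640 and 1727 FPKM for CD38 KO. Igfbp2 alone measured 1412 and 1260 FPKM for WT against 1574.5 and 1689 FPKM for CD38 KO. The next highest, Col1a1, was at 12.0 and 14.8 FPKM for WT against 26.4 and 17.1 FPKM for CD38 KO. The sum therefore follows Igfbp2 and does not measure meningeal content. Of 7 tested meningeal markers, 1 was higher (Igfbp2) and 1 lower (Pdgfra), and Slc22a6 was at 0 in all 4 libraries. Oligodendrocyte markers had 1 lower of 5 tested (Olig2) and summed to between 161 and 198 FPKM. None of the 10 endothelial markers passed the filter, with sums of 1.53 to 3.21 FPKM, and 0 of 2 tested pericyte markers were called. Ependymal and choroid plexus markers had 1 higher (Foxj1) and 1 lower (Rsph1) of 3 tested, with Ttr and Tmem212 at 0 in all 4 libraries. The part of these cell types in the differences of the 10 genes was not tested.

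The genes whose pattern over the 4 libraries was most like that of Gja1, by the Euclidean distance of centred log2(FPKM + 1) values, were 1600020E01Rik (distance 0.008), Plpp2, a lipid phosphatase gene (0.013), and Met, the hepatocyte growth factor receptor gene (0.014). Plpp2 had 10.5 and 10.4 FPKM for WT and 12.5 FPKM for each CD38 KO library. With 4 libraries such likeness describes these values only.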

How the data were processed

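RNA of 4 libraries of mouse astrocytes was measured. The deposited values are FPKM per gene, per the file headers, 1 file for each library. Per the submitters' processing notes, STAR 2.7.0f, Cufflinks 2.2.1, bcl2fastq 2.17 and the build GRCm38 were used. Neither the annotation release nor a scaling between libraries is stated in the sources used here. Positions came from GENCODE M21, which matched 55226 of 55467 gene IDs, and upstream sequences from RefSeq (GRCm38.p6).

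All genes averaging 1 FPKM or more (and Cd38, whatever its level) entered a fit of log2(FPKM + 1) by limma 3.58.1 (R 4.3.3). The model had genotype alone, with trended empirical Bayes moderation. P-values were adjusted by Benjamini-Hochberg over the 13064 genes, and a gene is called at an adjusted p under 0.05. Of the 10 members 9 passed the filter, Gjb2 through WT alone, and Gjb6 did not. Fold changes and percentages are of group means without the added 1, while log2 changes carry it and understate changes of low genes. The fit was tested on simulated data.

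Depth was recovered from single-transcript genes longer than 600 bases, whose low FPKM are whole multiples of 1 fragment. There were 17493 such genes, and only values below 10 fragments were used, 3152 to 3229 in a library. Of these values, 91.8% to 92.4% were within 0.1 of a whole number. A count test over all genes was not run, since genes of several transcripts do not in general give whole numbers. For Gjb2 and Gjb6 an exact interval from their pooled fragments is given.

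The 10 members, the lists and the tests were chosen with earlier results of these data known. The rule for names took the members, Cd38, up to 4 tested genes of smallest p in each list, and the 3 genes most like Gja1. Some connexins are not reported here. Further called genes of the lists, the connexins under the filter and the neighbours of Panx2 lie outside this rule and were picked with their values in view. The alternatives tried were a pseudocount of 0.1 or 0.5, no filter or one at 5 FPKM, 2 scalings, a replicate block, moderation without trend or robust, and leaving out single libraries. Where 1 library is left out, the spread of its genotype is taken from the other one. Python 3.11.15 (scipy 1.17.1, pandas 2.3.3, numpy 2.4.6) was used for the other steps.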

Additional observations from a re-analysis of the deposited data

How the results depend on the processing

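No tested member changed direction in any of 14 alternatives, but calls were few and ended easily. The count of members called higher was 1, and it was 0 with the replicate block and 0 without a trend. That of members called lower was 2, and it was 0 without a filter, 1 at a filter of 5 FPKM (where Panx2 is no longer tested), 1 with median-of-ratios scaling, 0 with the replicate block and 1 without a trend. Without 1 library both counts were 0 in all 4 fits. Cldn10 was called with crossed replicate numbers (adjusted p = 0.0349) and Gjb2 with quantile normalization (0.0457). With the replicate block the adjusted p was 0.0598 for Gja1, 0.0747 for Panx2 and 0.109 for Mlc1. Over all genes, 1045 higher and 830 lower became 430 and 312 without a filter, 610 and 427 with the replicate block, and 306 to 458 and 225 to 284 without 1 library. In the 4 lists of partner genes, 3 higher became 1 to 2 without 1 library, and 10 lower became 1 without a filter, 4 with the replicate block, 3 without a trend, and 1 to 2 without 1 library. Pdgfrb, not called in any fit, ran from -0.030 to 0.083 without 1 library, below 0 without WT 1 and without CD38 KO 1. The cause of these differences between fits was not tested.

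Libraries of the same replicate number did not deviate together (r = -0.16 over 13064 genes). With 2 libraries in each genotype the deviations mirror each other, so this is a single contrast. It cannot decide whether the numbers pair the samples. A block with crossed numbers, chosen after seeing the data, called 2 members higher and 1 lower, and 1102 genes higher and 859 lower over all. Median-of-ratios scaling moved the genotypes by less than 0.01 (log2) against each other. At this depth Gjb6 rests on 5 to 28 fragments a library.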

Other observations

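Mlc1 and Panx2, the 2 members called lower, lie 80726 bases apart on chromosome 15. Between them the annotation lists Mov10l1, at 0.0532 FPKM or less in each library, and Gm8702 and Gm23737, both listed at 0. Just beyond Panx2, Trabd measured 19.9 and 22.2 FPKM for WT against 16.0 and 15.0 FPKM for CD38 KO (log2 change -0.41, SE 0.07, limma adjusted p = 0.0196), and it lost its call in all 4 fits without 1 library. The locus the files give for Panx2 runs to the end of Trabd. The stretch was looked at after the values of Mlc1 and Panx2 were seen.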
